A study of Mus musculus with 9 samples.

Results

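The genes followed here are those of mitotic entry, the kinetochore and cytokinesis, 40 genes chosen by name for their role in cell division, with the motors named as kinesins (the Kif genes) left out. Cenpe, which is also a kinesin, is among the 40. A gene was taken as measured where the annotation of the array gave its symbol alone to at least 1 probe set, and the probe set with the highest mean over the arrays stood for it. In this way 39 of the 40 genes were measured, among 18193 genes in all. Ccnb1 has no such probe set in the annotation used and is not analysed here. The 39 genes fell into 5 groups by function, with 7 kinases and cyclins, 7 genes of the spindle checkpoint and the anaphase-promoting complex, 9 of the centromere and kinetochore, 7 of condensin and chromosome structure, and 9 of the spindle and cytokinesis.

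A cell enters mitosis when cyclin-dependent kinase 1, bound to cyclin A or cyclin B, becomes active, after which Polo-like and Aurora kinases help to build the spindle. Condensin and topoisomerase II compact the chromosomes, the kinetochore ties each centromere to spindle microtubules, and the spindle checkpoint holds back the anaphase-promoting complex (APC/C) until every kinetochore is attached. The messenger RNAs of most of these proteins are made in the G2 and M phases, so that a bulk RNA sample carries more of them when more of its cells are dividing. In a bulk sample fewer dividing cells and less RNA per dividing cell cannot be told apart.

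The samples were cultures of MC3T3-E1, an established line of mouse preosteoblasts, and all groups were of this line. The cells were kept for 14 days in medium with ascorbic acid and β-glycerophosphate, detached, reseeded and cultured for 24 h. Treated dishes then received low-intensity pulsed ultrasound (LIPUS) once, at 30 mW/cm2 and 1.5 MHz for 20 min, and were cultured for a further 24 h (LIPUS 24 h, 3 arrays) or 6 h (LIPUS 6 h, 3 arrays), while control dishes were mock-treated (control, 3 arrays). How long the mock dishes were cultured before RNA was taken is not given in the sources used here, so an effect of LIPUS and an effect of time in culture cannot be told apart in any comparison with it.

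Each value below is the log2 signal of a probe set, made by the authors with robust multi-array averaging (RMA). A difference of log2 signals is a log2 ratio of transcript levels, whereas the signals of different probe sets also depend on their probes, so that a percentile of signal says how bright a probe set was and does not rank transcript levels. The arrays carry the number of 1 of 3 experiments, and their median log2 signal was 4.89 to 4.93 in experiment 1, 5.15 in experiment 2 and 4.97 to 5.01 in experiment 3. Many values were shared between probe sets in experiments 2 and 3 (13358 to 20047 distinct values an array, against 40716 to 40936 in experiment 1). Ratios of exactly 0 on the log2 scale also occurred in experiments 2 and 3, and why they did was not tested. Of the osteoblast markers, Col1a1, Col1a2, Sparc and Postn lay above percentile 99 of all probe sets by mean signal, but Sp7 lay at percentile 68.9, Alpl at 51.1 and Ibsp at 23.6. The 20 measured markers of other cell types lay at percentiles 11.9 to 70.3 for blood cells (median 28.1, 6 genes), 15.8 to 56.3 for endothelium (median 22.3, 5 genes), 12.4 to 43.3 for fat cells (median 22.5, 4 genes) and 26.9 to 65.8 for skeletal muscle (median 52.3, 5 genes). Of these 6 lay above percentile 50, namely Cd14, Csf1r, Kdr, Acta1, Des and Ckm, while Ptprc of blood cells lay at percentile 12.5, Pecam1 of endothelium at 21.3 and Myog of muscle at 26.9. None of the 29 measured markers, those of osteoblasts included, passed the test at 24 h, and 5 of them had an unadjusted p under 0.05. Actb, the reference gene, gave 13.95, 14.01 and 13.63 at 24 h, 13.96, 13.99 and 13.63 at 6 h, and 13.99, 14.01 and 13.63 in the control. At 24 h its level was thus -0.02 from the control on the log2 scale (limma, adjusted p = 0.701). For Actb the groups of arrays overlapped.

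Groups were compared with limma in 1 fit over the 9 arrays, in which the experiment was a block, and p-values were adjusted over 45037 probe sets by the Benjamini-Hochberg method. A gene is called lower or higher where the adjusted p was under 0.05. The comparisons share arrays, since both LIPUS groups were set against the same control arrays and then against each other. The p-values set a difference between groups against how far such differences varied from experiment to experiment, pooled over the 3 groups. Differences in level between experiments were taken out by the block. The sources do not describe the 3 experiments further than by their number.

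At 24 h after LIPUS 26 of the 39 genes were lower than in mock-treated cells, by a modest amount, and 0 were higher. The other 13 were not called, and the log2 fold change had a value below 0 in all 39. Over all genes tested 1.57% were called lower and 2.57% higher. Among the genes whose probe set was in the upper 50% by mean signal, where all 39 lay (percentiles 70.3 to 97.7), 2.49% were called lower. The median log2 fold change of the 39 genes was -0.26 (-16.6%), while the median over all genes was 0.00. The medians in experiments 1, 2 and 3 were -0.33, -0.27 and -0.21. In 35 of the 39 genes the 24 h array lay below the control array of its experiment in all 3 experiments, which was so for 9.31% of all genes and 11.9% of those in the upper 50% by mean signal. Ratios of exactly 0 in experiments 2 and 3 were not counted as below and lower these shares. In the deposited values no gene of the 39 reached a mean ratio of 1.5, and the range ran from -0.48 for Cenpf to -0.03 for Bub3. The count rested on the pairing of the arrays and was 0 in a fit without the block. It became 0 when experiment 1 was left out, 0 when experiment 2 was, and 31 when experiment 3 was. It was also 0 when only the 6 arrays of control and 24 h were fitted, 12 without the intensity trend and 16 at the probe set of the highest variance. The median of the 39 stayed between -0.23 and -0.30 wherever it was recomputed, although not every such fit could move it. Over all probe sets 420 were called lower in the main fit, 0 without the block, 1 with the 6 arrays and 148 without the intensity trend. With experiment 1, 2 or 3 left out the numbers over all probe sets were 0, 16 and 653.

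**Figure D1:**
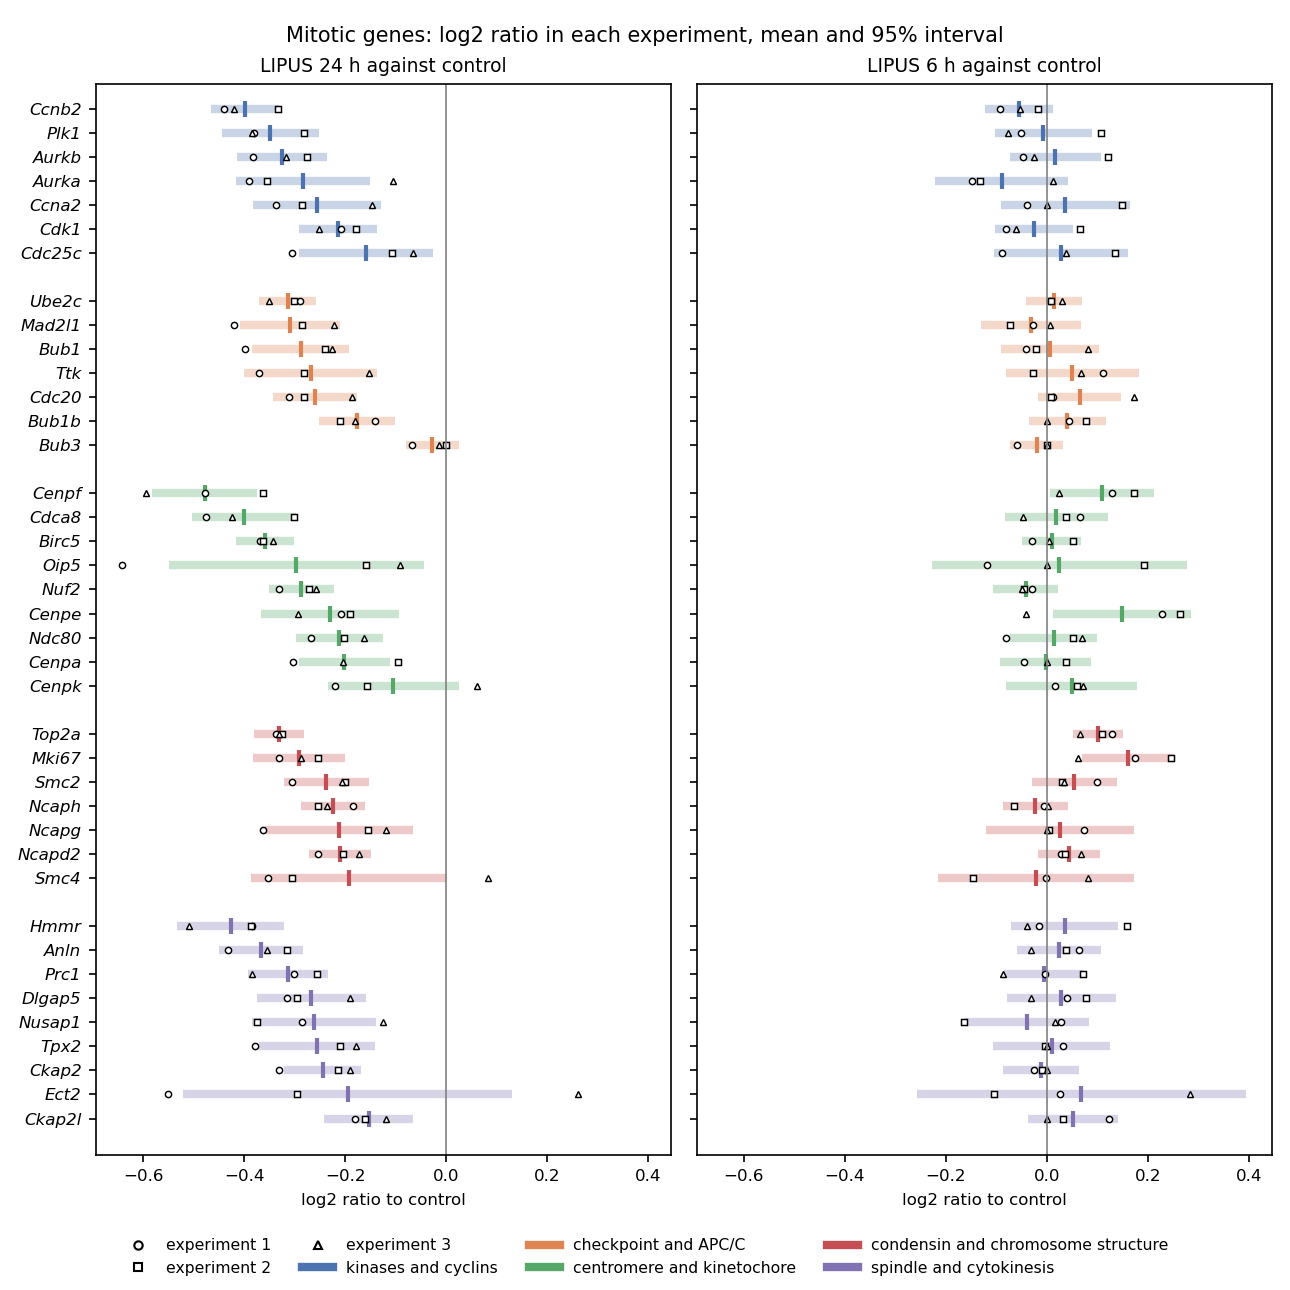
Log2 ratio to the mock control for each of the 39 mitotic genes at 24 h (left panel) and 6 h (right panel) after LIPUS. Open symbols are the 3 experiments, the vertical tick is the mean and the coloured bar its 95% interval from limma. At 24 h all 39 means lie left of 0, between -0.48 and -0.03, and at 6 h the means lie between -0.09 and 0.16 on both sides of 0.

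Several of these genes share short promoter motifs, and the promoters of the gene with the lowest 24 h ratio in each functional group are shown here together with that of Bub3, the gene whose ratio was nearest to 0. Cell cycle genes that peak in G2 and M phase often carry a hexamer of the cell cycle genes homology region (CHR), TTTGAA or TTCGAA, which is bound by the DREAM and MuvB complexes, and CCAAT boxes, which are bound by NF-Y. The sequences are from RefSeq on mouse build GRCm38.p6, on the strand of the gene, and run from 150 bases before the start of transcription to 30 bases after it. Capitals mark the hexamers TTTGAA and TTCGAA and the box CCAAT on either strand, so that TTCAAA and ATTGG are matches on the other strand. The windows are chr9:70421525-70421704 (- strand) for Ccnb2, chr2:164769779-164769958 (+ strand) for Ube2c, chr1:189688057-189688236 (- strand) for Cenpf, chr11:99024160-99024339 (- strand) for Top2a, chr11:40733408-40733587 (- strand) for Hmmr and chr7:131560220-131560399 (+ strand) for Bub3, where the table lists 2 starts and the 1 listed first is shown.
Ccnb2: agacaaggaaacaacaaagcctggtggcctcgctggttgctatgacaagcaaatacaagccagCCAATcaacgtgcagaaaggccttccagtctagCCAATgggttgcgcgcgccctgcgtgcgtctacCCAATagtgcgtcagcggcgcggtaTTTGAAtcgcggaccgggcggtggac
Ube2c: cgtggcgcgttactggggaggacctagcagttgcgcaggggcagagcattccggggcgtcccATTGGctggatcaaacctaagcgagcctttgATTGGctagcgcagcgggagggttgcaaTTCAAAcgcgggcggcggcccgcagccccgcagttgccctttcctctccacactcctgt
Cenpf: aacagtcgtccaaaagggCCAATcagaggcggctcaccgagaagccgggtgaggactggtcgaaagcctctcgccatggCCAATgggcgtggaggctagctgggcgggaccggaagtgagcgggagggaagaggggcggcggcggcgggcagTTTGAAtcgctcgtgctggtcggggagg
Top2a: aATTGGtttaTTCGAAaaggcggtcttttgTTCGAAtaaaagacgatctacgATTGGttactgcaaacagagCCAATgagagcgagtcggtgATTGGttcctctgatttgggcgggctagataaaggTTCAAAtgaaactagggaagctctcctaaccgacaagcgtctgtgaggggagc
Hmmr: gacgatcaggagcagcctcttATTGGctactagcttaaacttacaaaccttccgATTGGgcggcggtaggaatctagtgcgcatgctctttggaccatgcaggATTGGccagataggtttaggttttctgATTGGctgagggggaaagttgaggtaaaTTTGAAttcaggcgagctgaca
Bub3: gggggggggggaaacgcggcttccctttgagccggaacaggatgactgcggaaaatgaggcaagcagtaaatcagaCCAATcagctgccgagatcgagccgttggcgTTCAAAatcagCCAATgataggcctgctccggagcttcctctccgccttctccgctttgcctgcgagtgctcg

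In Ccnb2, Cenpf and Hmmr the hexamer began 5, 3 and 9 bases into the transcript, counting the first transcribed base as 1, with CCAAT boxes before it. In Ube2c it began at -29, on the other strand. The stretch of Top2a holds TTCGAA at -140 and at -120 and a hexamer on the other strand at -23. Bub3 also has both kinds of motif, with a hexamer on the other strand at -43 between CCAAT boxes at -74 and -32, so that a box also follows the hexamer. The level of Bub3 at 24 h was not called different from the control. RefSeq windows of 300 bases, from 250 before to 50 after the start, were found for 33 of the 39 genes (38 windows) and were not found in the table for Aurkb, Ccna2, Cdc25c, Dlgap5, Smc4 and Tpx2. A hexamer on either strand stood in 26 of these 33 genes, or 29 of 38 windows (76.3%), against 19.2% of all 32851 windows. The form TTTGAA alone was in 28 of the 38 windows (73.7%, against 17.9% of all windows) and the form TTCGAA in 3 (7.89%, against 1.56%). A CCAAT box was in 31 of the 38 windows (81.6%, against 37.4%), and both kinds of motif in 27 (71.1%, against 7.52%). The hexamer and the box can overlap by an end base, and such matches were counted for both.

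The motifs were not spread evenly along the window. Matches were counted window by window, so that a site in overlapping windows of the same gene was counted more than once. Of 41 hexamer matches in the mitotic genes 28 (68.3%) lay between -75 and 50, where 32.3% of the hexamers of all windows lay. Of 74 CCAAT boxes 50 (67.6%) lay between -125 and -1, against 52.3% of the boxes of all windows. The hexamer was found in 19 of 23 genes called lower at 24 h (82.6%) and in 7 of 10 that were not called (70.0%), and the CCAAT box in 17 of 23 (73.9%) and 9 of 10 (90.0%). By function the hexamer was in 4 of 4 kinases and cyclins, 6 of 7 checkpoint and APC/C genes, 5 of 9 centromere and kinetochore genes, 5 of 6 genes of condensin and chromosome structure, and 6 of 7 genes of the spindle and cytokinesis. These are matches of letters, and binding was not measured.

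**Figure D2:**
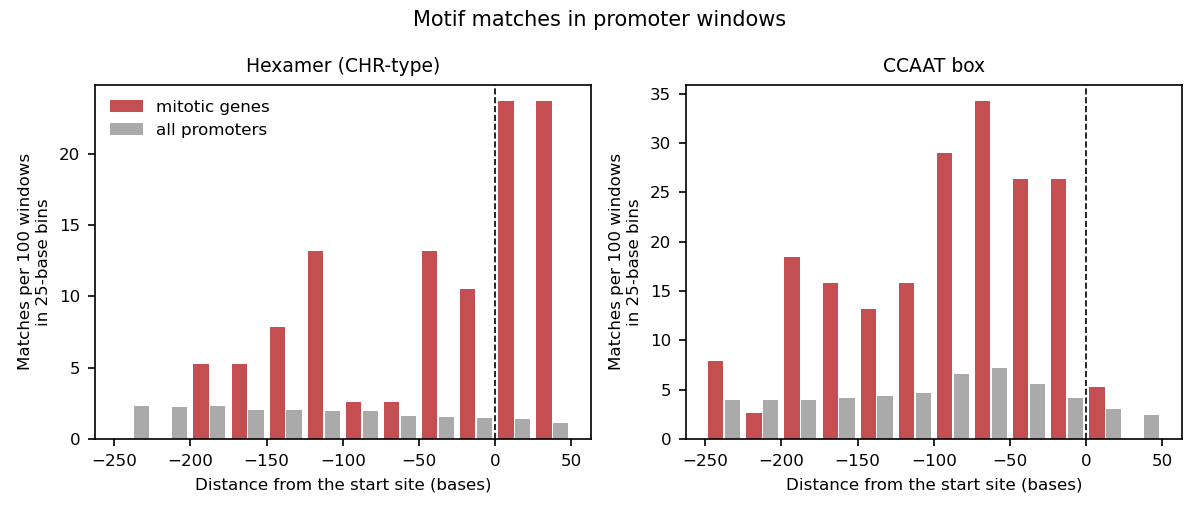
Matches per 100 promoter windows in bins of 25 bases by distance from the start of transcription, for the hexamers TTTGAA and TTCGAA (left panel) and the CCAAT box (right panel). Red bars are the 38 windows of the mitotic genes and grey bars all 32851 windows. In the mitotic genes the hexamer is most frequent just after the start and the CCAAT box in the 100 bases before it.

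Among the kinases and cyclins 4 of 7 genes were lower at 24 h and 0 higher, with a median log2 fold change of -0.28. Ccnb2, which encodes cyclin B2, a partner of cyclin-dependent kinase 1, gave log2 signals of 9.68, 9.94 and 9.55 at 24 h in experiments 1, 2 and 3, 10.03, 10.26 and 9.92 at 6 h, and 10.12, 10.27 and 9.97 in the control. All 24 h arrays lay below all control arrays, while those of 6 h and control overlapped. The level at 24 h was lower by 0.40 on the log2 scale (-24.1%, standard error 0.03, adjusted p = 0.00123), and this was the largest change of the group. Plk1, the Polo-like kinase that drives centrosome maturation and mitotic exit, gave 8.48, 8.56 and 8.36 at 24 h, 8.81, 8.95 and 8.66 at 6 h, and 8.86, 8.85 and 8.74 in the control. Its 24 h arrays stood below every array of the other groups, at a log2 fold change of -0.35 against control (standard error 0.04, adjusted p = 0.00759). Aurkb, the kinase of the chromosomal passenger complex, was lower by 0.32 (adjusted p = 0.00773) and Cdk1, the kinase that starts mitosis, by 0.21 (adjusted p = 0.0204), and the ratios of both were below 0 in every experiment. At its other probe set Aurkb had -0.29 and was not called (adjusted p = 0.334), with a ratio of 0.05 in experiment 3.

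The other kinases and cyclins had negative ratios that did not pass. Cdc25c, the phosphatase that removes inhibitory phosphates from cyclin-dependent kinase 1, gave 7.60, 7.81 and 7.38 at 24 h, 7.82, 8.05 and 7.48 at 6 h, and 7.90, 7.92 and 7.45 in the control. The groups overlapped and the differences between experiments were larger than those between groups. Its log2 fold change at 24 h was -0.16, with a 95% interval of -0.29 to -0.03 (adjusted p = 0.289). Aurka, the Aurora kinase of spindle poles, had -0.28 (interval -0.42 to -0.15, adjusted p = 0.052), with -0.39, -0.35 and -0.11 in the 3 experiments. Ccna2, which encodes cyclin A2, had -0.26 at the probe set used here (interval -0.38 to -0.13, adjusted p = 0.0651), while its other probe set was called lower at -0.36 (adjusted p = 0.00428).

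The spindle checkpoint and APC/C genes were lower in 5 of 7 cases and higher in 0, with a median of -0.27. Ube2c, the ubiquitin-conjugating enzyme that works with the APC/C to mark cyclin B for destruction, gave 10.82, 11.01 and 10.63 at 24 h, 11.11, 11.32 and 11.02 at 6 h, and 11.11, 11.31 and 10.99 in the control. In each experiment the 24 h array stood well below the other arrays, although the 24 h and control groups overlapped because the experiments differed in level. The log2 fold change was -0.31 (standard error 0.02, adjusted p = 0.00145). Mad2l1, the checkpoint protein that holds the APC/C activator Cdc20 inactive, gave 10.79, 10.95 and 10.49 at 24 h, 11.18, 11.16 and 10.72 at 6 h, and 11.20, 11.23 and 10.71 in the control. It was lower by 0.31 at 24 h (standard error 0.04, adjusted p = 0.0129), again in every experiment and with overlapping groups. Bub1, a checkpoint kinase of the kinetochore, was lower by 0.29 (adjusted p = 0.0151), Cdc20 itself by 0.26 (adjusted p = 0.0129) and Bub1b, which encodes the checkpoint protein BubR1, by 0.18 (adjusted p = 0.0376). The other probe set of Bub1, at percentile 64.8 by mean signal, had -0.001 and was not called.

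A pair of checkpoint genes did not pass. Bub3, which encodes the protein that brings Bub1 and BubR1 to the kinetochore, gave 11.09, 11.29 and 10.79 at 24 h, 11.10, 11.29 and 10.81 at 6 h, and 11.16, 11.29 and 10.81 in the control. The 3 arrays of an experiment were nearly level and the groups overlapped throughout. The log2 fold change was -0.03 (interval -0.08 to 0.03, adjusted p = 0.668), and its 4 other probe sets were at 0.10 to 0.18, none of them called. Ttk, the kinase Mps1 that starts checkpoint signalling, had -0.27 (interval -0.40 to -0.14, adjusted p = 0.0627), with -0.37, -0.28 and -0.15 in the 3 experiments.

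Of the centromere and kinetochore genes 6 of 9 were lower at 24 h and 0 higher, with a median of -0.29. Cenpf, a large coiled-coil protein of the outer kinetochore that accumulates in G2, gave 8.88, 9.25 and 8.76 at 24 h, 9.48, 9.79 and 9.38 at 6 h, and 9.35, 9.61 and 9.35 in the control. All 24 h arrays lay below all others, and in each experiment the 6 h array was the highest. At 24 h it was lower by 0.48 on the log2 scale (-28.2%, standard error 0.04, adjusted p = 0.00334), the largest change among the 39 genes. Cdca8, which encodes borealin of the chromosomal passenger complex, gave 9.86, 10.35 and 9.94 at 24 h, 10.40, 10.68 and 10.32 at 6 h, and 10.33, 10.65 and 10.36 in the control. The 24 h array of experiment 2 reached the level of the control arrays of experiments 1 and 3, so the groups overlapped, but within each experiment 24 h was the lowest. Its log2 fold change was -0.40 (standard error 0.04, adjusted p = 0.00594).

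Birc5, which encodes survivin of the same complex, was lower by 0.36 (-22.0%, adjusted p = 0.00113), and its ratios in the 3 experiments, -0.37, -0.36 and -0.34, lay closest together in this group. Cdca8, Birc5 and Aurkb, which act together in that complex, were thus all lower at 24 h. Nuf2 and Ndc80, subunits of the complex that grips microtubule ends, were lower by 0.29 (adjusted p = 0.00386) and 0.21 (adjusted p = 0.0321). Cenpa, the histone H3 variant of centromeric chromatin, was lower by 0.20 (adjusted p = 0.0455).

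Cenpk, a subunit of the inner kinetochore, was the least changed of this group, with 8.96, 9.27 and 9.0 at 24 h, 9.19, 9.48 and 9.01 at 6 h, and 9.17, 9.42 and 8.94 in the control. The groups overlapped, and in experiment 3 the 24 h array stood above its control by 0.06. The mean log2 fold change was -0.10 (interval -0.23 to 0.03, adjusted p = 0.511). Cenpe, the kinetochore motor protein that moves chromosomes to the spindle equator, had -0.23 (interval -0.37 to -0.09, adjusted p = 0.116). Oip5, which encodes a protein that helps to load Cenpa, had -0.30 with a wide interval (-0.55 to -0.04, adjusted p = 0.302), since its ratio was -0.64 in experiment 1 but -0.16 and -0.09 in the other two.

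Genes of condensin and chromosome structure were lower in 5 of 7 cases and higher in 0, with a median of -0.22. Top2a, the topoisomerase that untangles sister DNA strands, gave 11.31, 11.45 and 10.91 at 24 h, 11.78, 11.88 and 11.31 at 6 h, and 11.65, 11.77 and 11.24 in the control. In each experiment the order was the same, with 24 h lowest and 6 h highest, although experiment 3 was lower throughout and the groups overlapped. Its log2 fold change at 24 h was -0.33 (-20.5%, standard error 0.02, adjusted p = 9.49e-04), the smallest adjusted p of the 39 genes. Mki67, which encodes Ki-67, a protein of the surface of mitotic chromosomes and a common marker of cycling cells, gave 10.96, 11.13 and 10.71 at 24 h, 11.46, 11.63 and 11.06 at 6 h, and 11.29, 11.39 and 11.00 in the control. The order within each experiment was that of Top2a. Mki67 was lower at 24 h by 0.29 (standard error 0.04, adjusted p = 0.0124).

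The condensin I subunits Ncaph and Ncapd2 were lower by 0.22 (adjusted p = 0.00869) and 0.21 (adjusted p = 0.00999), and Smc2, the ATPase shared by both condensins, by 0.24 (adjusted p = 0.0198). Smc4, the partner of Smc2, gave 11.16, 11.44 and 10.61 at 24 h, 11.51, 11.61 and 10.61 at 6 h, and 11.51, 11.75 and 10.52 in the control. Experiments 1 and 2 had the 24 h array below the control and experiment 3 had it above, and the groups overlapped widely. Its log2 fold change was -0.19 (interval -0.39 to 0.00, adjusted p = 0.404). The other probe sets of Smc4 had -0.12 and -0.29, were not called and lay above the control in no experiment. Ncapg, another subunit of condensin I, had -0.21 (interval -0.36 to -0.07, adjusted p = 0.18), with a negative ratio in each experiment.

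Spindle and cytokinesis genes were lower in 6 of 9 cases and higher in 0, with a median of -0.26. Hmmr, a microtubule-associated protein of spindle poles that is also known as a hyaluronan receptor, gave 10.05, 10.14 and 9.74 at 24 h, 10.42, 10.68 and 10.21 at 6 h, and 10.43, 10.52 and 10.25 in the control. Every 24 h array lay below every array of the other groups. Its log2 fold change was -0.43 (-25.6%, standard error 0.04, adjusted p = 0.00552), next in size to that of Cenpf. Anln, which encodes anillin, a scaffold of the cleavage furrow, gave 10.77, 11.13 and 10.81 at 24 h, 11.27, 11.49 and 11.14 at 6 h, and 11.20, 11.45 and 11.17 in the control. The 24 h arrays again lay below all others, at -0.37 against control (standard error 0.04, adjusted p = 0.00421).

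Prc1, which bundles the microtubules of the central spindle, was lower by 0.31 (adjusted p = 0.00582). Dlgap5, a stabilizer of kinetochore fibres, was lower by 0.27 (adjusted p = 0.0316), Tpx2, the spindle activator of Aurora A, by 0.26 (adjusted p = 0.0461) and Ckap2, a microtubule-associated protein of the spindle, by 0.24 (adjusted p = 0.012). The other probe sets of Tpx2 ran from -0.40 to -0.03, none of them called. Ckap2l, a relative of Ckap2, gave 9.46, 9.65 and 9.32 at 24 h, 9.76, 9.85 and 9.44 at 6 h, and 9.64, 9.82 and 9.44 in the control. Its 24 h array was the lowest of each experiment, but the groups overlapped, and the log2 fold change of -0.15 did not pass (interval -0.24 to -0.06, adjusted p = 0.106).

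Nusap1, a microtubule-binding protein of the spindle, had -0.26 (interval -0.38 to -0.14, adjusted p = 0.0544). Ect2, the exchange factor that activates RhoA at the cell equator, varied the most between experiments, with ratios of -0.55, -0.29 and 0.26 and a mean of -0.19 (interval -0.52 to 0.13, adjusted p = 0.629). At the probe sets used here it was the only gene of the 39 with a ratio over 0.10 in any experiment at 24 h. Besides Ect2, Smc4 and Cenpk, no gene of the 39 lay above its control in any experiment at these probe sets, and Bub3 had a ratio of 0 in experiment 2. Some of the 46 other probe sets did, as in experiment 3 for Bub1 at 0.45 and Hmmr at 0.37, while 40 of the 46 had a mean below 0.

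**Figure D3:**
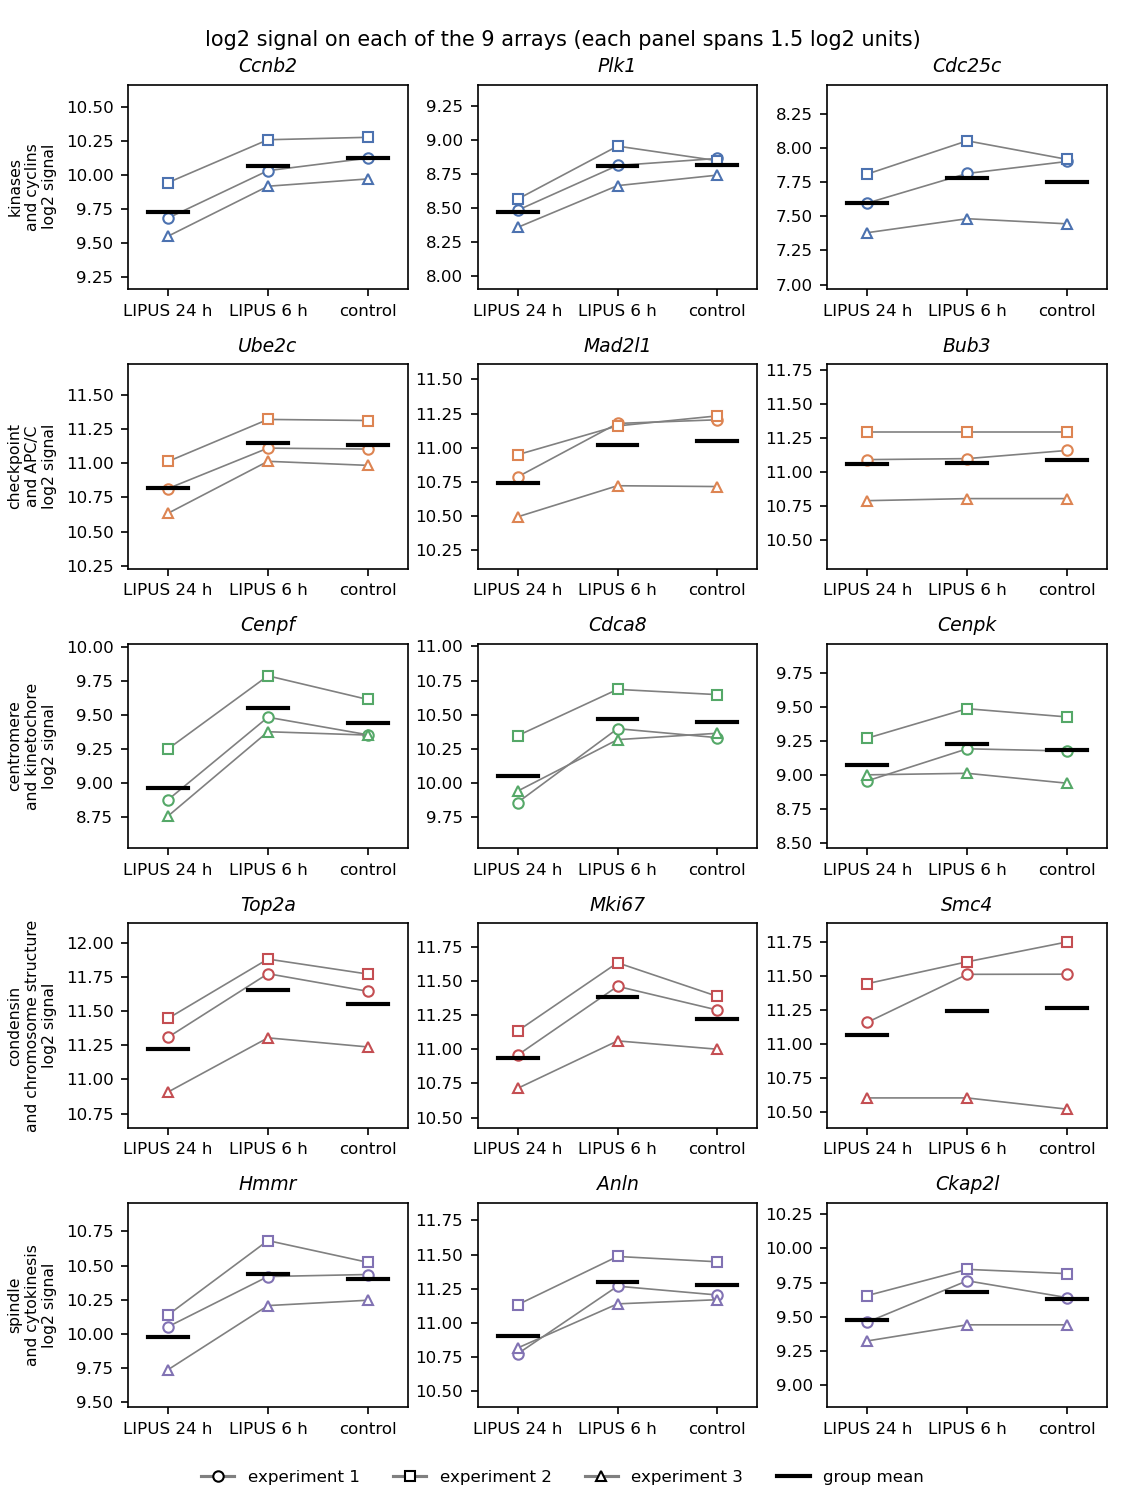
Log2 signal on each of the 9 arrays for the 15 genes given in full, with LIPUS 24 h, LIPUS 6 h and control from left to right in each panel. Symbols joined by a grey line are arrays of 1 experiment and black bars are group means, and each panel spans 1.5 log2 units. In Plk1, Cenpf, Hmmr and Anln the 3 arrays of 24 h lie below all other arrays, and in Bub3 the lines are nearly flat.

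The groups by function did not stand far apart from each other, with medians between -0.29 and -0.22 at 24 h. The spread of the 39 ratios within an experiment, as a standard deviation, was 0.11 in experiment 1, 0.08 in experiment 2 and 0.16 in experiment 3, against 0.21, 0.12 and 0.21 for all genes. The arrays of 24 h lay entirely below those of the control for 10 genes, namely Ccnb2, Plk1, Aurkb, Ccna2, Cenpf, Birc5, Cenpe, Hmmr, Anln and Prc1, which was so for 0.792% of all genes and 1.05% of those in the upper 50% by mean signal. A further reading came from the 46 further probe sets of 27 of these genes. Of these 40 were below 0 at 24 h, 4 were called lower (in Bub1b, Ccna2, Cdca8 and Prc1) and 0 higher. In the upper 50% of probe sets by mean signal 33 of 34 were below 0, with a median of -0.28. In the lower 50% the numbers were 7 of 12 and -0.04. Over all 45037 probe sets 22191 were below 0 and 420 were called lower, with a median of 0.00.

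At 6 h after LIPUS the levels of these genes were close to the control. None of the 39 was called by limma in either direction (smallest adjusted p = 0.959), as was the case for 0% of all genes lower and 0% higher, while 4 of the 39, 691 of all 18193 genes and 571 of the 11474 in the upper 50% by mean signal (4.98%) had an unadjusted p under 0.05. The median log2 fold change of the 39 was 0.02, and the individual values ran from -0.09 for Aurka to 0.16 for Mki67. In experiment 3 the median ratio of the 39 was 0. There Ccna2, Bub1b, Bub3, Oip5, Cenpa, Ncapg, Tpx2, Ckap2 and Ckap2l had the same deposited value at 6 h and in the control. Such ties count as neither above nor below. The ratio was above 0 in all 3 experiments for 8 of the 39 (20.5%, against 7.9% of all genes and 12.1% of those in the upper 50% by mean signal), namely Ube2c, Cdc20, Cenpf, Cenpk, Top2a, Mki67, Smc2 and Ncapd2. Of these, 4 were among the 7 genes of condensin and chromosome structure. The ratio was below 0 in all 3 for Ccnb2 and Nuf2.

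The 4 genes with an unadjusted p under 0.05 at 6 h were all above the control in the mean. Mki67 stood above its control by 0.17, 0.25 and 0.06 in experiments 1, 2 and 3, a mean of 0.16 (interval 0.07 to 0.25). Cenpe had a mean of 0.15 (interval 0.01 to 0.29), Cenpf of 0.11 (interval 0.01 to 0.21) and Top2a of 0.10 (interval 0.05 to 0.15). The adjusted p of each was 0.959. Of the 7 kinases and cyclins the 6 h ratio was negative for 7 genes in experiment 1, 2 in experiment 2 and 4 in experiment 3 (medians -0.08, 0.11 and -0.03), and the median of their log2 fold changes was -0.01.

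Set against the earlier LIPUS group, these genes were lower at 24 h. These groups also differ in time in culture, so an effect of LIPUS and an effect of time cannot be told apart here either. Of the 39 genes 29 were lower at 24 h than at 6 h and 0 were higher, where 1.49% of all genes were lower, 1.75% were higher, and 2.36% of the genes in the upper 50% by mean signal were lower. The median was -0.29 on the log2 scale (-18.3%). In 37 of the 39 genes the 24 h array lay below the 6 h array in all 3 experiments, against 9.54% of all genes and 13.5% of those in the upper 50% by mean signal, and the exceptions were Bub3 and Smc4. By function the genes called lower were 5 of 7 kinases and cyclins, 6 of 7 checkpoint and APC/C genes, 6 of 9 of the centromere and kinetochore, 5 of 7 of condensin and chromosome structure, and 7 of 9 of the spindle and cytokinesis. In a fit without the block the count was 0. It became 0 when experiment 1 was left out, 2 when experiment 2 was, and 32 when experiment 3 was. It was 0 with only the 6 arrays of the LIPUS groups, 14 without the intensity trend and 16 at the probe set of the highest variance. Over all probe sets 396 were called lower in the main fit, 0 without the block, 3 with the 6 arrays and 137 without the intensity trend. With experiment 1, 2 or 3 left out the numbers over all probe sets were 0, 18 and 815.

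The largest difference was again in Cenpf, at -0.59 (-33.4%, standard error 0.04, adjusted p = 0.00168), the only mean ratio of the 39 past 1.5 in any comparison of the deposited values. It was followed by Hmmr at -0.46 (adjusted p = 0.00457), Mki67 at -0.45 (adjusted p = 0.00284), Top2a at -0.43 (adjusted p = 4.35e-04) and Cdca8 at -0.42 (adjusted p = 0.00598). The genes called here but not against the control were Ccna2 at -0.29, Ttk at -0.32, Cenpe at -0.38 and Ckap2l at -0.20, with adjusted p of 0.0487, 0.0409, 0.0239 and 0.0479 in that order. Cenpa, called against the control, was at -0.20 here (adjusted p = 0.0576). Bub3 was level between the LIPUS groups, at -0.01 (interval -0.06 to 0.05).

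Other genes of mitosis, listed by role, had a median nearer to 0. Of 102 such genes 23 were lower at 24 h and 1 was higher, with a median of -0.13. The closest in size were the other genes of the spindle and cytokinesis, of which 9 of 18 were lower, with a median of -0.26. Pimreg, a mitotic regulator that binds the clathrin adaptor CALM, had -0.43 (adjusted p = 0.0184), Cep55, which recruits the abscission machinery to the midbody, -0.39 (adjusted p = 0.00603) and Aspm, a spindle pole protein, -0.38 (adjusted p = 0.00231). Ckap5, a microtubule polymerase with many roles outside mitosis, was nearest to 0 among those not called, at -0.03 (interval -0.18 to 0.12).

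Of the other genes of the centromere and kinetochore 6 of 33 were lower and 0 higher, with a median of -0.15. Cenpu of the inner kinetochore had -0.37 (adjusted p = 0.0186), Spc24, a subunit that joins the Ndc80 complex to the inner kinetochore, -0.34 (adjusted p = 0.00582) and Spdl1, which brings dynein to the kinetochore, -0.28 (adjusted p = 0.0101). Cenpc1, a base of the kinetochore that stays on centromeres through the cell cycle, stood at 0.00 (interval -0.10 to 0.10). In condensin II 1 of 3 genes was lower, Ncapg2 at -0.28 (adjusted p = 0.0482), and Ncapd3 was at -0.10 (interval -0.36 to 0.15).

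Among 14 genes of cohesin and separase 3 were lower and 1 higher, with a median of -0.07. The lower ones were the protectors of centromeric cohesin Sgo2a at -0.34 (adjusted p = 0.0139) and Sgo1 at -0.25 (adjusted p = 0.0491), and Cdca5, which encodes sororin, at -0.26 (adjusted p = 0.00869). Pds5b, a cohesin-associated protein, was the higher one at 0.24 (adjusted p = 0.0192), and Stag2, a core cohesin subunit, stood at -0.01 (interval -0.10 to 0.07). Of 15 genes of the APC/C core and its inhibitors 2 were lower, with a median of -0.01. These were Fbxo5, the interphase inhibitor Emi1, at -0.29 (adjusted p = 0.029) and Ube2s, the enzyme that extends ubiquitin chains on APC/C substrates, at -0.16 (adjusted p = 0.042), whereas the core subunit Cdc16 stood at 0.00 (interval -0.08 to 0.08).

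Of 19 other regulators of mitotic entry 2 were lower, with a median of -0.10. They were Nek2, a kinase that separates centrosomes, at -0.38 (adjusted p = 0.00644) and Cks2, a small subunit of cyclin-dependent kinases, at -0.18 (adjusted p = 0.0386). Lin37, a subunit of the DREAM and MuvB complexes that bind the hexamer, stood at 0.00 (interval -0.09 to 0.10). In the promoter windows of these other genes of mitosis the hexamer stood in 9 of 14 genes of the spindle and cytokinesis, 15 of 29 of the centromere and kinetochore, 3 of 3 of condensin II, 4 of 11 of cohesin and separase, 3 of 14 of the APC/C core and its inhibitors and 5 of 13 regulators of mitotic entry.

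Genes of the S phase, when DNA is copied, were listed for comparison. Of 31 such genes 4 were lower and 0 higher, with a median of -0.11. Tk1, thymidine kinase, had -0.28 (adjusted p = 0.00975), Lig1, the ligase that joins Okazaki fragments, -0.23 (adjusted p = 0.0104) and Prim1, a primase subunit, -0.19 (adjusted p = 0.0223). Rfc3, a subunit of the clamp loader, was at -0.01 (interval -0.14 to 0.12). Their hexamer and CCAAT shares were 6 of 26 and 15 of 26 genes. None of the 11 reference genes was called at 24 h, 1 of them had an unadjusted p under 0.05, and their median was 0.00. The counts for the other genes of mitosis and the S phase, 27 of 133 in all, fell to 0 in a fit without the block, and became 0, 0 and 39 when experiment 1, 2 or 3 was left out, 0 with only the 6 arrays of control and 24 h and 10 without the intensity trend.

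**Figure D4:**
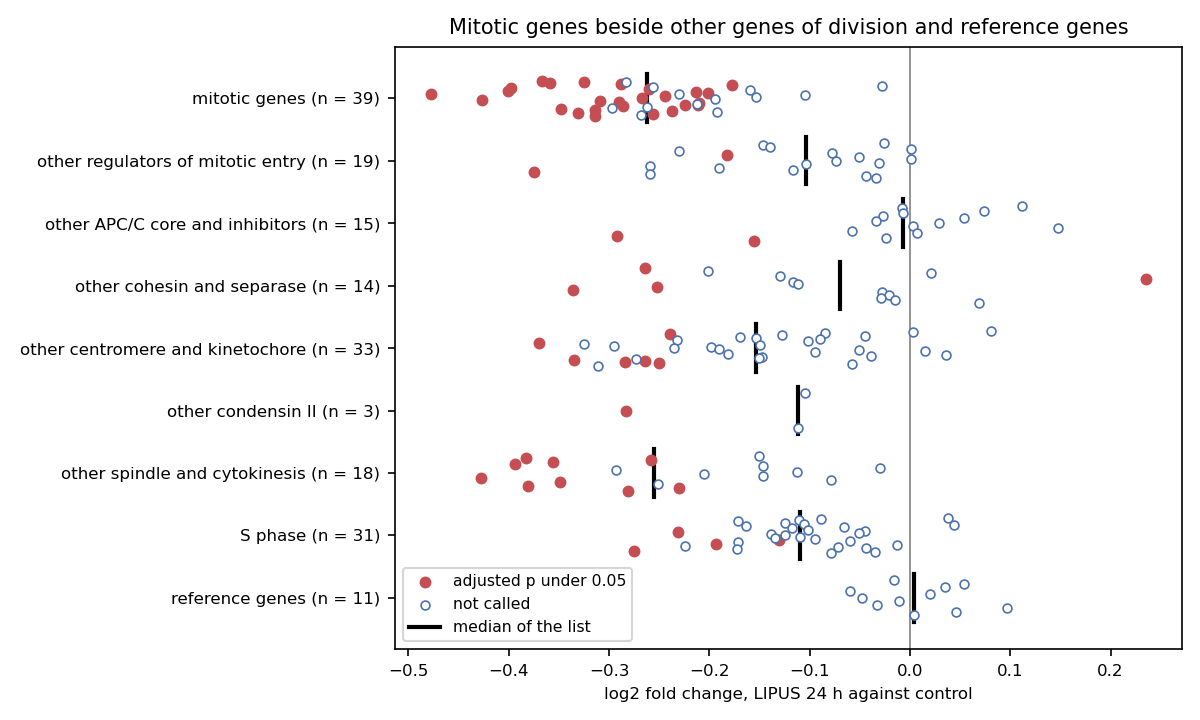
Log2 fold change at 24 h against control for each of the 39 mitotic genes, for other genes of mitosis by role, for genes of the S phase and for reference genes. Filled points had an adjusted p under 0.05 by limma, open points did not, and black bars are medians. The mitotic genes and the other genes of the spindle and cytokinesis have medians of -0.26, the S phase genes of -0.11 and the reference genes of 0.00.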

How the data were processed

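RNA of 9 cultures was hybridized by the authors to Affymetrix whole-genome mouse arrays, from 500 ng of total RNA. The authors deposited log2 signals made with RMA according to the submitters' processing notes, and the version and settings of RMA are not given in the sources used here. The deposited log2 values were used without further transformation. Of 45101 probe sets 64 controls were left out. The array annotation gave 1 symbol for 34945 of the remaining 45037 probe sets, several for 932 and none for 9160, and symbols were checked against gene identifiers. Each gene was represented by the probe set with the highest mean.

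Comparisons used limma 3.58.1 in R 4.3.3 (lmFit and eBayes with an intensity trend, 2-sided), with the experiment number as a fixed block, 4 residual and 3.00 prior degrees of freedom. The number in the labels was taken to pair arrays because the study gives its counts of changed probe sets experiment by experiment. Deviations from the group means had correlations of 0.701 to 0.933 for arrays that share a number and of -0.674 to 0.00916 for arrays that do not. Such deviations sum to 0 within a group, which pushes the correlations of arrays that do not share a number down. Median signal and the number of distinct values also differed by experiment, and their part in these correlations was not tested. Intervals are 95% intervals of the fit. No depth applies to arrays, and the 3 arrays a group limited the precision. Summaries used Python 3.11.15 and pandas 2.3.3.

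The 40 genes and all other lists were chosen with earlier results of these data known, and no list was tested as a set. Values on every array are given for the 2 genes with the lowest and the 1 with the highest log2 fold change at 24 h in each functional group. Of the other lists up to 3 called genes and the 1 not called nearest to 0 are named. The promoters printed are those of the gene with the lowest ratio of each group and of Bub3. Promoter windows came from RefSeq (GRCm38.p6). Alternatives covered the block, the trend, the variance prior, the normalization, the probe sets, the arrays and the test.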

Additional observations from a re-analysis of the deposited data

Results flagged for a closer look

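For 29 of the 39 genes the change against the control at 24 h differed from that at 6 h, by the limma comparison of 24 h with 6 h. The control arrays are common to both changes, so the difference of the changes is the difference of the LIPUS groups. The LIPUS groups also differ in time in culture, so an effect of LIPUS and an effect of time cannot be told apart. All values here are log2 signals at 24 h minus those at 6 h. Among the kinases and cyclins it was -0.34 in Ccnb2, -0.34 in Plk1, -0.34 in Aurkb, -0.29 in Ccna2 and -0.19 in Cdk1. For genes of the checkpoint and the APC/C it was -0.33 in Ube2c, -0.28 in Mad2l1, -0.29 in Bub1, -0.32 in Ttk, -0.32 in Cdc20 and -0.22 in Bub1b. In the centromere and kinetochore group it was -0.59 in Cenpf, -0.42 in Cdca8, -0.37 in Birc5, -0.24 in Nuf2, -0.38 in Cenpe and -0.23 in Ndc80. Of the genes of condensin and chromosome structure it was -0.43 in Top2a, -0.45 in Mki67, -0.29 in Smc2, -0.20 in Ncaph and -0.25 in Ncapd2. Within the spindle and cytokinesis group it was -0.46 in Hmmr, -0.39 in Anln, -0.31 in Prc1, -0.30 in Dlgap5, -0.27 in Tpx2, -0.23 in Ckap2 and -0.20 in Ckap2l. The adjusted p of these genes ran from 4.35e-04 for Top2a to 0.049 for Tpx2. Groups of 3 arrays are too small for a check of single arrays against the rest.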

How the results depend on the processing

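The median log2 fold change of the 39 genes at 24 h was -0.26 and lay between -0.23 and -0.30 under all alternatives run for it, those that left out an experiment included. Fits without the block, with only 6 arrays or with the upper 50% of probe sets leave each ratio unchanged by design. They could not move the median or a direction. The counts of called genes depended on the fit. Without the replicate block, that is without the pairing of arrays by experiment, 0 of the 39 genes were lower at 24 h against control (26 with it), 0 against 6 h (29 with it) and 0 of the 133 other genes (27 with it). With only the 6 arrays of the groups compared the counts were 0, 0 and 0, and without the intensity trend 12, 14 and 10. Leaving out an experiment gave 0 to 31 against control, 0 to 32 against 6 h and 0 to 39 for the other genes, and the low values came from leaving out experiment 1 or 2. Each of these fits had 2 arrays a group. At the probe set of the highest variance the counts were 16 and 16. There Ttk had 0.16 and Bub3 0.10 on the log2 scale at dim probe sets. The methods' t-test, which ignores the pairing, gave 8 and 5 at an unadjusted p under 0.05 and 0 and 0 after Benjamini-Hochberg adjustment. Over all 45037 probe sets this t-test gave 140 and 120 lower at an unadjusted p under 0.05, and 0 and 0 after adjustment. In the deposited values a ratio of 1.5 in every experiment gave 0 and 0 of the 39, and 16 and 18 lower over all probe sets. Robust variances, quantile normalization, centring and the upper 50% of probe sets moved the counts by at most 1.5 times, to between 21 and 31 at 24 h against control and, for the other genes, to between 18 (centring) and 38. The count at 6 h against control was 0 under all alternatives. Counting any probe set of a gene, an alternative chosen after seeing the data like those for the other genes, gave 27 and 29. Over the single genes the direction at 24 h held under all alternatives but for Ttk and Bub3 as above. Calls over all probe sets fell as well, from 420 lower at 24 h against control to 0 without the block. Why the calls depend on the fit was not tested. Precision was limited by 3 arrays a group, and bright probe sets had the smaller errors.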
